A study of Homo sapiens with 21 samples.

Results

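The E2F family, FOXM1 and MYBL2 are 10 transcription factor genes that drive or restrain the transcription of cell cycle genes. They were taken by symbol, as E2F1 to E2F8, FOXM1 and MYBL2, from a table of 23368 genes, and all 10 were among the 19694 genes whose values varied between libraries. The RNA came from hTERT-HPNE, a human pancreatic cell line that is immortalized by telomerase but not transformed, in 7 groups of 3 biological replicates each. The groups were untreated cells collected at 0 h, cells given 300 µM hydrogen peroxide (H2O2) and collected after 4, 8 or 24 h, and cells given 400 ng/ml neocarzinostatin (NCS), a radiomimetic drug that breaks both DNA strands, and collected after 4, 8 or 24 h. All groups were kept in the same EGF-supplemented medium containing puromycin, and treatment came with a change to fresh medium. No untreated library was collected at 4, 8 or 24 h, so treatment and time after the medium change cannot be told apart in comparisons with untreated cells. Both treatments were compared with the same 3 untreated libraries.

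The values were rLog values, which are read counts normalized for depth and moved to a log2 scale that draws low counts toward the gene's mean. Differences between groups are therefore log2 differences on this scale and are understated most for the genes with the lowest values. Sequencing depth is unknown, since these values carry no counts, and library medians over the varying genes lay between 7.14 and 7.19. The mesenchymal genes VIM, COL1A1 and FN1 had untreated means of 17.05, 17.97 and 20.13, and duct epithelium genes were mixed. KRT18, KRT8, KRT7, SOX9 and CDH1 had untreated means of 11.64, 7.78, 6.74, 5.93 and 3.77, while KRT19, CFTR and EPCAM lay at 0.60, -1.34 and -1.76, near the bottom of the scale at -2.31. The acinar genes PRSS1 and CELA3A and the endocrine gene INS were listed at 0 in every library. The 8 h H2O2 replicate 2 stood farther from its group than any other library did from its own, with deviations from the other 2 replicates of SD 0.0984 over the varying genes, against 0.0558 to 0.0799 in the other libraries, and the main values at 8 h of H2O2 are given without it as well.

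E2F proteins bind gene promoters, for most of them as dimers with a DP protein. E2F1, E2F2 and E2F3 are activators that the retinoblastoma protein RB holds inactive until cyclin-dependent kinases phosphorylate it, E2F4 and E2F5 work mainly as repressors with the RB relatives p107 and p130, E2F6 represses without pocket proteins, and E2F7 and E2F8 repress without a DP partner. MYBL2 encodes B-MYB, which joins the MuvB complex in S phase and precedes FOXM1 on the promoters of genes needed for mitosis. In bulk RNA, fewer cells in a cell cycle phase and less RNA per cell cannot be told apart.

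Promoter sequence was matched in RefSeq (GRCh38.p14) for 7 of the 10 genes, with no entry matched for E2F5, E2F8 and FOXM1. The 250 bases before each start were searched on both strands for the E2F site letters TTTCCCGC, TTTGGCGC, TTTCGCGC and TTTGCCGC, for the shorter E2F core GGCGGGA, which can overlap the first of these and was added after the MYBL2 sequence had been read, for the cell cycle homology element TTTGAA and for the CCAAT box. Across 35116 promoters, 2.79% held an E2F site, 13.5% the core, 13.3% TTTGAA and 32.0% a CCAAT box. The 3 activator E2F genes each held an E2F site, MYBL2 held the core only, and E2F4, E2F6 and E2F7 held neither an E2F site nor the core. E2F3 had 2 matched promoters. Its site lay in the one shown, and the other held the core without an E2F site. CCAAT boxes were found in E2F7 (4), E2F3 (4) and E2F1 (3). These 4 promoters are shown because 3 of their genes, E2F1, E2F2 and MYBL2, moved together at 24 h while E2F3 moved less. The values are per gene and are not split between the 2 E2F3 promoters. The stretches lie at chr20:33686386-33686505 (minus strand) for E2F1, chr1:23531234-23531353 (minus strand) for E2F2, chr6:20401759-20401878 (plus strand) for E2F3 and chr20:43667063-43667092 (plus strand) for MYBL2. The starts used are those of RefSeq. In the GENCODE annotation the MYBL2 stretch lies wholly within the gene, which begins at 43667019. The E2F1 stretch overlaps its GENCODE gene in part, since that gene reaches 33686404. Capitals mark E2F sites read on either strand, the E2F core and, in E2F3, the TTTGAA element that precedes the site.
E2F1: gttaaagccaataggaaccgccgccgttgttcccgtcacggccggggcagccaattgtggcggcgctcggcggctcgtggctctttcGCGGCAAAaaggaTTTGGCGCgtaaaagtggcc
E2F2: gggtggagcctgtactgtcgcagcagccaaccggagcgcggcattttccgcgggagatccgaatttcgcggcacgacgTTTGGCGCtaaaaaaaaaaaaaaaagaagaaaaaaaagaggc
E2F3: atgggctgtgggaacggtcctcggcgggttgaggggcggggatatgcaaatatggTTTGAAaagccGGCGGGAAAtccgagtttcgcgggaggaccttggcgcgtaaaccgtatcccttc
MYBL2: gccgacgcgcttGGCGGGAgatagaaaagt
A match to these letters is a description of the sequence and does not show that a factor was bound in these cells.

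At 24 h the family split into genes that fell more than 2-fold after both treatments and genes that moved little. E2F1, E2F2, E2F8, FOXM1 and MYBL2 fell by 1.27 to 1.49 on the log2 scale after H2O2 and by 1.30 to 1.63 after NCS, and these 5 genes were the ones called differentially expressed (adjusted p under 0.05 and a log2 difference over 1). After H2O2, 8 of the 10 genes fell and 1 rose (limma, adjusted p under 0.05), against 19.9% of all genes tested that fell and 20.2% that rose, and the 5 genes past the log2 difference of 1 compare with 1.29% of all genes. After NCS, 9 genes fell and none rose, against 18.4% and 19.6% of all genes, and the 5 compare with 1.37%. The median difference of the 10 genes was -0.80 after H2O2 and -0.82 after NCS, and that of all genes lay between -0.010 and 0.0051 in every comparison made. E2F5 was the gene that passed in neither comparison.

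**Figure D1:**
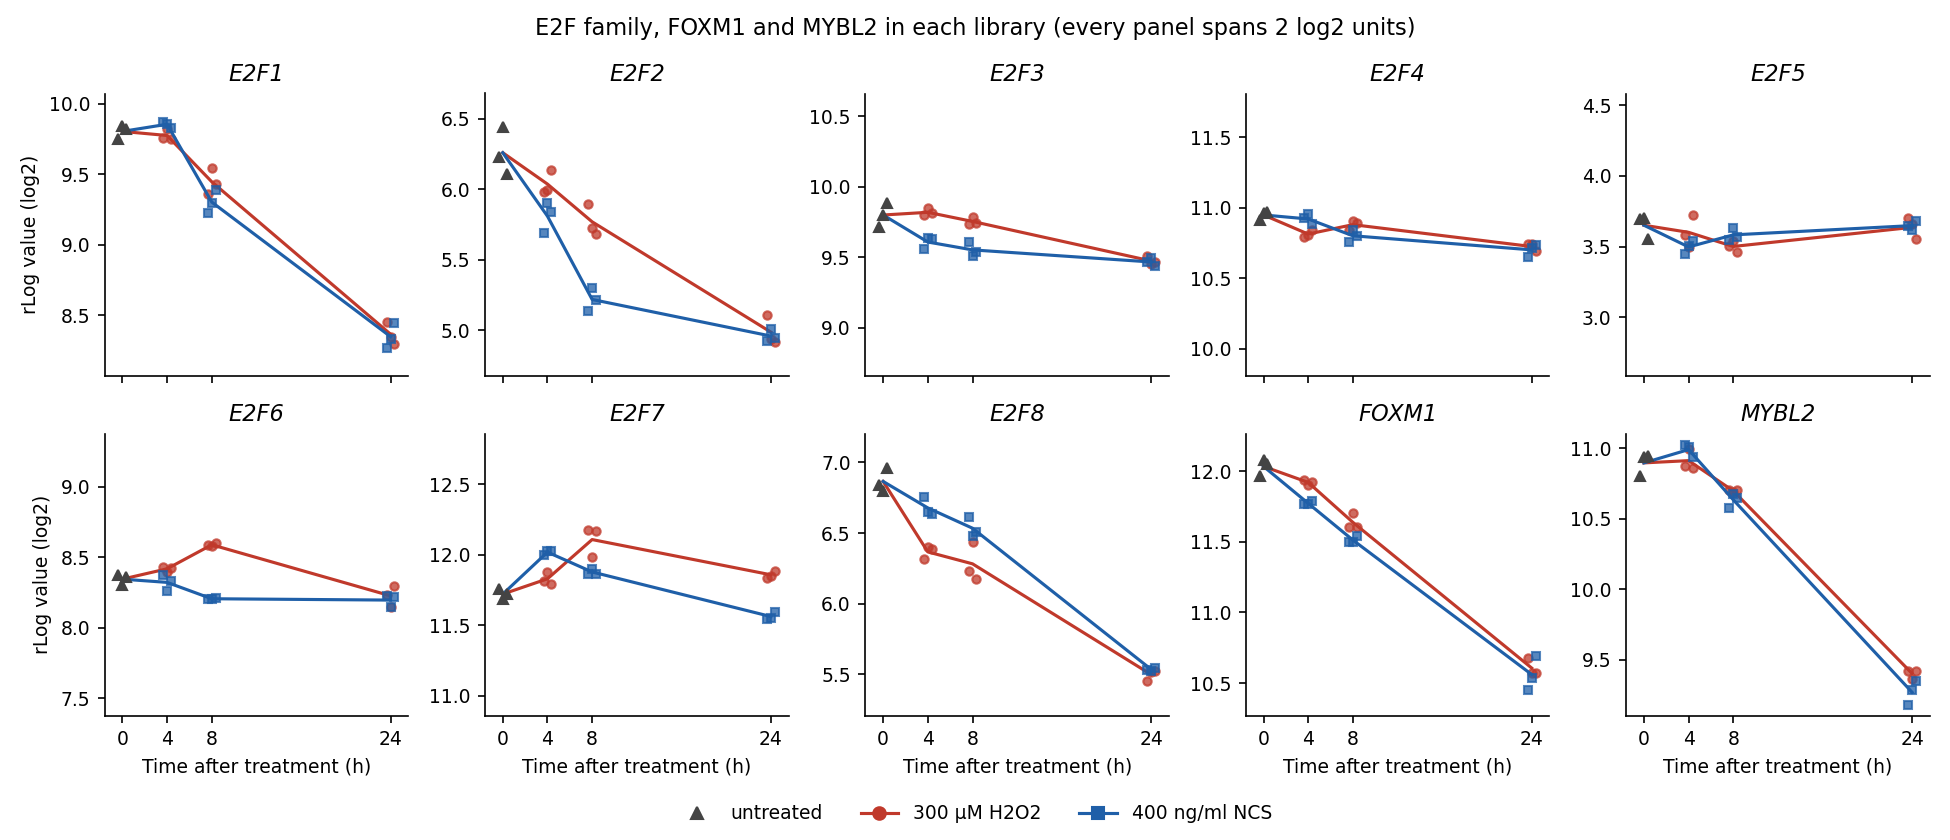
rLog value (log2, y axis, every panel spanning 2 units) of each gene in each of the 21 libraries against hours after treatment (x axis), with untreated libraries as grey triangles at 0 h, H2O2 as red circles, NCS as blue squares and lines through the group means. E2F1, E2F2, E2F8, FOXM1 and MYBL2 end more than 1 unit below untreated cells after both treatments, E2F7 lies above untreated cells at 4 and 8 h, and E2F4 and E2F5 stay within a narrow band.

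Fewer of the 10 genes passed at 4 h than at 24 h, and the median differences were smaller at 4 and 8 h. At 4 h of H2O2, E2F4, E2F2 and E2F8 fell and E2F7 rose, against 19.7% of all genes that fell and 26.2% that rose. At 4 h of NCS, E2F2, E2F3, E2F8 and FOXM1 fell and E2F7 rose, against 9.72% and 7.47% of all genes. By 8 h, 6 genes had fallen and 2 had risen after H2O2, against 18.6% and 18.8% of all genes, and 8 had fallen and 1 had risen after NCS, against 13.3% and 10.5%. The median of the 10 genes was -0.04 and -0.17 at 4 and 8 h of H2O2 and -0.09 and -0.25 at 4 and 8 h of NCS. From 8 to 24 h, 9 genes fell after H2O2, against 23.2% of all genes, and 7 after NCS, against 15.0%, and none rose after either, against 19.4% and 14.9% of all genes. From 4 to 8 h, 4 fell and 2 rose after H2O2 (27.7% and 18.0% of all genes), and 7 fell and none rose after NCS (7.50% and 6.16%). The NCS count was 4 to 6 with any one library left out, lowest without the 8 h replicate 1, and the calls lost were those of E2F4, E2F6 and E2F7. From 4 to 8 h of H2O2, 5 to 7 genes passed with any one library left out, and E2F2 was lost without replicate 3 of either time. From 8 to 24 h of NCS, 5 to 7 passed. There E2F2 was lost without 8 h replicate 2 or 3 or 24 h replicate 1 or 3. E2F4 was lost without 8 h replicate 2 or 24 h replicate 1, after median alignment and when these groups were fitted alone.

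E2F1, the first cloned activator of the family, held its level through 4 h and then fell steeply. Untreated replicates read 9.75, 9.84 and 9.82. After 24 h of H2O2 the replicates read 8.45, 8.34 and 8.30, and after 24 h of NCS they read 8.27, 8.33 and 8.45. Neither 24 h group overlapped the untreated group, and the treatments overlapped each other. The difference from untreated cells was -1.44 after H2O2 (SE 0.054, 2.71-fold lower, adjusted p = 1.32e-13) and -1.45 after NCS (SE 0.054, 2.74-fold lower, adjusted p = 1.06e-13). At 4 h the replicates lay between 9.75 and 9.82 after H2O2 and between 9.83 and 9.87 after NCS, and neither difference from untreated cells passed (adjusted p = 0.715 and 0.678). By 8 h E2F1 had fallen by 0.36 after H2O2, or by 0.41 without replicate 2, and by 0.50 after NCS.

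E2F2, a close relative of E2F1 of the same activating kind, had fallen further after NCS than after H2O2 by 8 h. Untreated replicates spread from 6.11 to 6.44. The 4 h NCS replicates read 5.69, 5.90 and 5.84 and the 8 h NCS replicates 5.13, 5.30 and 5.22, all below every untreated replicate. The fall was 0.45 after 4 h of NCS (SE 0.084, adjusted p = 7.87e-04) and 1.04 after 8 h (SE 0.084, adjusted p = 2.91e-08), where E2F2 was the only one of the 10 genes past a log2 difference of 1, a size that 0.274% of all genes reached downward. After 8 h of H2O2 the replicates read 5.90, 5.73 and 5.68, a fall of 0.49 (adjusted p = 1.19e-04). Without H2O2 replicate 2, E2F2 fell by 0.47. By 24 h the means were 4.99 after H2O2 and 4.96 after NCS, and the groups overlapped. The smaller fall of 0.22 at 4 h of H2O2 was lost on leaving out untreated replicate 1 or 2 or H2O2 replicate 1 or 2. It was also lost when these groups were fitted alone (adjusted p from 0.0382 with all libraries to 0.231).

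E2F3, the third activator, changed little at any time. It fell by 0.33 at 24 h after both treatments, to means of 9.47 and 9.47 from an untreated mean of 9.80 ± 0.08 (SD, n = 3). After NCS most of this was present at 4 h, where the replicates read 9.56, 9.63 and 9.63 and lay below the untreated replicates at 9.72, 9.80 and 9.88 (a fall of 0.19, adjusted p = 9.26e-04). After H2O2 the replicates still overlapped those of untreated cells at 4 and 8 h. At 24 h the E2F3 replicates lay between 9.45 and 9.51 after H2O2 and between 9.44 and 9.49 after NCS, below every untreated replicate.

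Among the repressors that work with pocket proteins, E2F4 had one of the highest levels of the 10 genes and E2F5 the lowest. E2F4 fell by 0.22 at 24 h of H2O2 (SE 0.029, adjusted p = 3.17e-06) and by 0.25 at 24 h of NCS (SE 0.029, adjusted p = 9.95e-07), from untreated replicates of 10.91, 10.97 and 10.97 to 10.74, 10.74 and 10.69 and to 10.65, 10.72 and 10.74. At 4 h it had fallen after H2O2 by 0.14 (adjusted p = 7.50e-04), while the NCS replicates overlapped the untreated ones. E2F5 lay between 3.44 and 3.72 in all 21 libraries. Its one call, a fall of 0.15 at 8 h of H2O2 (adjusted p = 0.0458), was lost without untreated replicate 1 or 2 or H2O2 replicate 1 or 3. That call was also lost with a replicate block and when these groups were fitted alone, with adjusted p up to 0.160. E2F5 also shared 969 exonic bases, 16.3% of its exon length, with C8orf59 on the opposite strand, a gene that passed in none of the comparisons with untreated cells.

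E2F6, which represses as part of a variant Polycomb complex, was the gene that moved in opposite directions after the treatments at 8 h. The H2O2 replicates read 8.58, 8.58 and 8.60 and the NCS replicates 8.21, 8.20 and 8.21, on either side of the untreated replicates at 8.37, 8.30 and 8.36. E2F6 rose by 0.24 after H2O2 (SE 0.037, adjusted p = 3.35e-05) and fell by 0.14 after NCS (SE 0.037, adjusted p = 9.31e-03). The H2O2 to NCS difference of 0.38 (SE 0.037, adjusted p = 3.17e-07) was 0.39 without the deviating H2O2 replicate 2. By 24 h the groups overlapped, at means of 8.23 and 8.20. The fall from untreated cells at 24 h was 0.12 after H2O2 and 0.15 after NCS, and neither passed after quantile normalization (adjusted p up to 0.113 and 0.112 over the alternatives). The H2O2 call was also lost without untreated replicate 1 or H2O2 replicate 2 and when these groups were fitted alone. The annotation lists 4 pseudogenes named after E2F6, 2 after E2F3 and 1 after E2F4, and reads shared with them could shift the values of these genes.

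E2F7, an atypical repressor and a known p53 target, was the only one of the 10 genes to rise after both treatments, and it peaked at different times. Untreated replicates read 11.76, 11.68 and 11.72. After NCS the replicates rose to 12.00, 12.03 and 12.03 at 4 h, read 11.87, 11.90 and 11.87 at 8 h and ended at 11.54, 11.55 and 11.59 at 24 h, below every untreated replicate. With H2O2 the 4 h replicates read 11.81, 11.88 and 11.79, the 8 h replicates reached 12.17, 11.98 and 12.17, and the 24 h replicates, at 11.84, 11.85 and 11.89, were still above every untreated replicate. The rise was 0.30 at 4 h of NCS (SE 0.038, adjusted p = 1.58e-05) and 0.39 at 8 h of H2O2 (SE 0.038, adjusted p = 2.20e-07), the latter 0.45 without H2O2 replicate 2. At 24 h E2F7 was higher than in untreated cells by 0.14 after H2O2 (adjusted p = 7.03e-03) and had fallen by 0.16 after NCS (adjusted p = 2.38e-03). The rise of 0.11 at 4 h of H2O2 (adjusted p = 0.0270) was lost without untreated replicate 2 or 3 or H2O2 replicate 2 (adjusted p up to 0.128).

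E2F8, the closest relative of E2F7 and likewise a repressor of E2F targets, was below untreated cells at every time. Untreated replicates read 6.84, 6.80 and 6.96, and the 4 h H2O2 replicates already read 6.31, 6.40 and 6.38, a fall of 0.50 (SE 0.062, adjusted p = 2.52e-06) that was larger than that of any other of the 10 genes at 4 h of either treatment. The 4 h NCS replicates at 6.75, 6.65 and 6.64 lay between these groups. Their fall of 0.19 (adjusted p = 0.0430) was lost without untreated replicate 1 or 3 or NCS replicate 2 or 3. It was also lost with a replicate block, after quantile normalization and when these groups were fitted alone (adjusted p up to 0.192). At 8 h the replicates read 6.23, 6.44 and 6.18 after H2O2 and 6.61, 6.48 and 6.51 after NCS, falls from untreated cells of 0.58 and 0.33. Without H2O2 replicate 2, E2F8 fell by 0.66 at 8 h of H2O2. The step from 4 to 8 h did not pass after either treatment (adjusted p = 0.293 and 0.152). At 24 h E2F8 read 5.45, 5.52 and 5.52 after H2O2 and 5.53, 5.52 and 5.54 after NCS, falls of 1.37 and 1.33. Per kilobase of exon, the untreated level of E2F8 was 4.82 and that of E2F7 9.06 on the log2 scale, and at 24 h they were 3.45 and 9.20 after H2O2 and 3.48 and 8.91 after NCS.

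FOXM1, a forkhead factor that activates genes of G2 and mitosis, fell in order of time after both treatments. Untreated replicates read 11.97, 12.08 and 12.05. At 4 h they read 11.94, 11.90 and 11.92 after H2O2 and 11.77, 11.77 and 11.79 after NCS, and at 8 h 11.60, 11.71 and 11.61 after H2O2 and 11.50, 11.50 and 11.54 after NCS. No treated group overlapped the untreated one. FOXM1 had fallen by 0.26 at 4 h of NCS (SE 0.047, adjusted p = 5.34e-04), whereas its difference of -0.11 at 4 h of H2O2 did not pass (adjusted p = 0.0574), though it did after median alignment (adjusted p = 0.0130), among genes with a mean of at least 5, when fitted on these groups alone and without untreated replicate 1. At 24 h the replicates read 10.68, 10.57 and 10.57 after H2O2 and 10.45, 10.54 and 10.69 after NCS, falls of 1.43 (SE 0.047, 2.69-fold, adjusted p = 2.64e-14) and 1.47 (SE 0.047, 2.78-fold, adjusted p = 1.55e-14). FOXM1 shares 781 exonic bases, 15.9% of its exon length, with ITFG2 on the opposite strand, and the strand setting of the counting is not given in the sources used here. ITFG2 itself fell by 0.19 at 24 h of H2O2 and differed by -0.11 at 24 h of NCS (adjusted p = 2.52e-03 and 0.0768). The part of shared reads in the values of FOXM1 was not tested.

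MYBL2 fell late and furthest. Untreated replicates read 10.80, 10.94 and 10.94. At 4 h they read 10.88, 11.00 and 10.86 after H2O2 and 11.03, 11.01 and 10.94 after NCS, overlapping untreated cells, and neither difference passed (adjusted p = 0.836 and 0.198). At 8 h MYBL2 had fallen by 0.20 after H2O2, or by 0.19 without replicate 2, and by 0.26 after NCS, the smallest falls among the 5 genes that later passed a log2 difference of 1. At 24 h the replicates read 9.42, 9.37 and 9.42 after H2O2 and 9.18, 9.28 and 9.35 after NCS, falls of 1.49 (SE 0.046, 2.81-fold, adjusted p = 1.17e-14) and 1.63 (SE 0.046, 3.09-fold, adjusted p = 3.12e-15). The drop between 8 and 24 h alone was 1.29 after H2O2 and 1.36 after NCS, the largest of the 10 genes in that interval after each treatment.

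**Figure D2:**
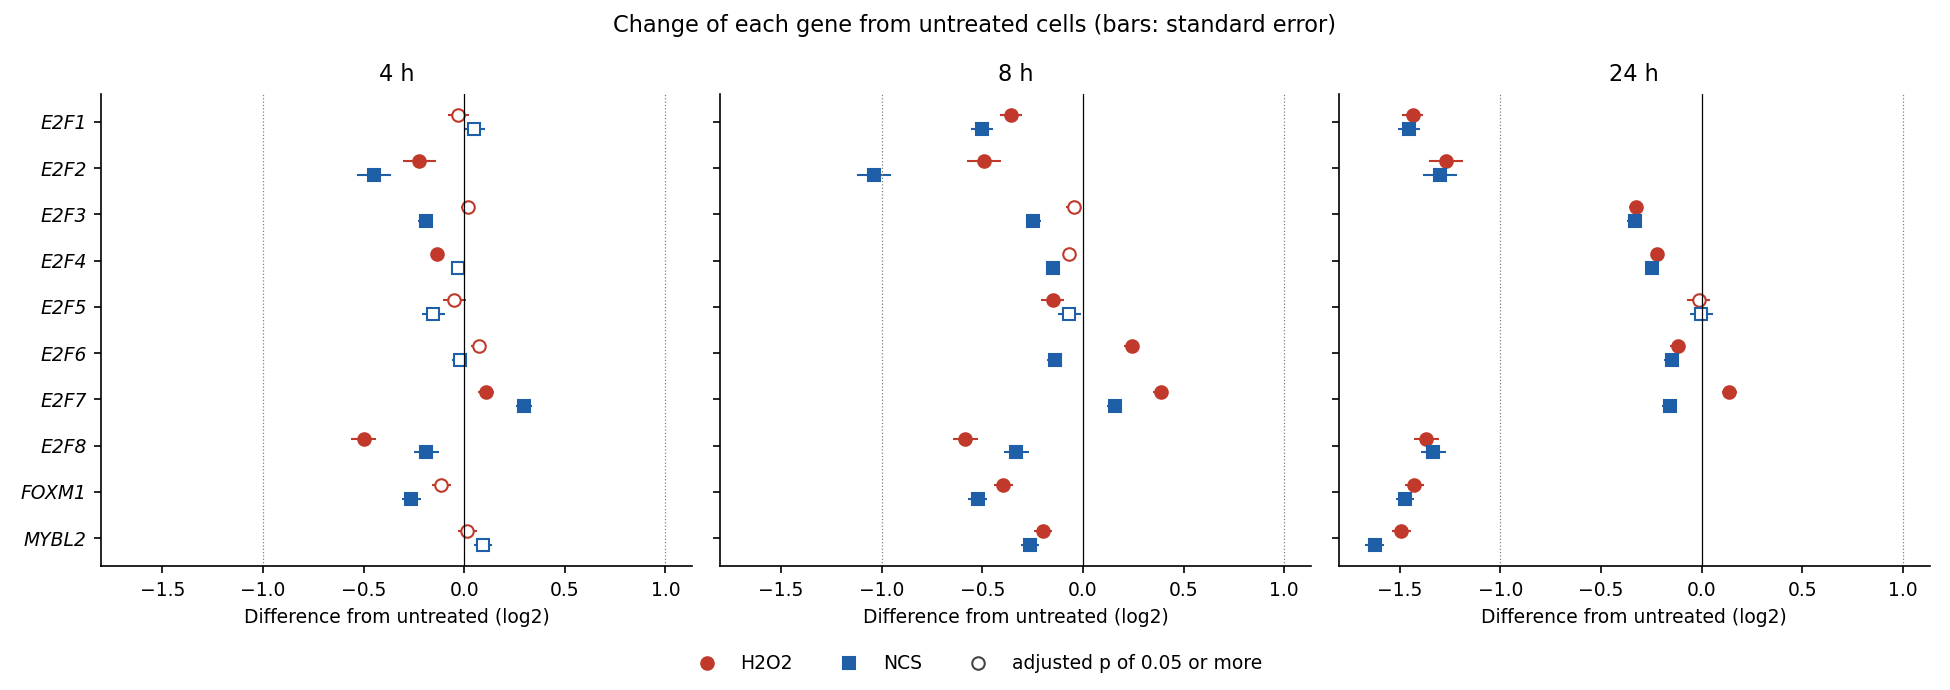
Difference of each gene from untreated cells (log2, x axis) at 4, 8 and 24 h, with H2O2 as red circles, NCS as blue squares, bars for the standard error, dotted lines at log2 differences of -1 and 1 and open symbols where the adjusted p was 0.05 or more. At 24 h 5 genes lie beyond -1 after both treatments, with MYBL2 farthest at -1.49 and -1.63, while E2F7 lies on opposite sides of 0.

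The direct comparison of H2O2 with NCS at matched times asked whether the treatments differed. At 4 h, 4 genes were higher and 3 lower after H2O2, where 26.3% and 18.0% of all genes were. E2F3 was higher after H2O2 by 0.21 (adjusted p = 1.15e-04), FOXM1 by 0.15 (adjusted p = 0.0152) and E2F2 by 0.23 (adjusted p = 0.0354). The difference was -0.31 for E2F8 (adjusted p = 4.17e-04), -0.19 for E2F7 (adjusted p = 5.14e-04) and -0.11 for E2F4 (adjusted p = 5.20e-03). The E2F2 call and that of E2F6 (0.10, adjusted p = 0.0433) were lost in 5 and 8 of the 11 alternatives and omissions of a library, with adjusted p up to 0.164 and 0.216. For E2F2 these included H2O2 replicate 3 and NCS replicates 1 and 3, and for E2F6 every H2O2 replicate and NCS replicates 2 and 3.

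At 8 h, 7 genes were higher and 1 lower after H2O2, against 18.7% and 15.4% of all genes. E2F2 differed most, by 0.55 (SE 0.084, adjusted p = 4.70e-05), then E2F6 by 0.38. E2F7 was higher after H2O2 by 0.23 (adjusted p = 1.11e-04) and E2F3 by 0.20 (adjusted p = 2.54e-04). E2F8 was again lower after H2O2, at -0.25 (adjusted p = 3.42e-03), although it was not called when these groups were fitted alone (adjusted p = 0.0695). Without H2O2 replicate 2, E2F2 differed by 0.57, E2F7 by 0.29, E2F3 by 0.18 and E2F8 by -0.33, all still past the threshold. The calls of E2F1 (0.14), E2F4 (0.08) and FOXM1 (0.13) were lost without that library, at 0.09, 0.07 and 0.09 (adjusted p = 0.217, 0.115 and 0.184). The E2F1 call was also lost without H2O2 replicate 3 or NCS replicate 1 or 2. That of E2F4 was also lost without H2O2 replicate 3 or NCS replicate 1 or 3. Both were lost after quantile normalization and when these groups were fitted alone. The FOXM1 call was lost without any one of the 8 h libraries, after quantile normalization and with a replicate block. At 24 h only E2F7 and MYBL2 passed, 2 of 10 against 11.0% of all genes that were higher and 10.9% that were lower. E2F7 was higher after H2O2 by 0.30 (SE 0.038, adjusted p = 1.36e-05). The MYBL2 difference of 0.13 (adjusted p = 0.0442) was lost without any one of the 24 h libraries but NCS replicate 3 (adjusted p up to 0.235). For E2F1, E2F2, E2F8 and FOXM1 the 24 h differences between treatments were 0.02, 0.03, -0.04 and 0.05, with 95% intervals of -0.10 to 0.13, -0.15 to 0.21, -0.17 to 0.09 and -0.05 to 0.14, beside falls of 1.27 or more from untreated cells. The change of the H2O2 to NCS difference from 4 h to 24 h was tested as well, and 4 genes passed with a positive change and 1 with a negative one, against 16.6% and 22.7% of all genes. It was largest for E2F7, at 0.49 (SE 0.054, adjusted p = 1.32e-06).

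**Figure D3:**
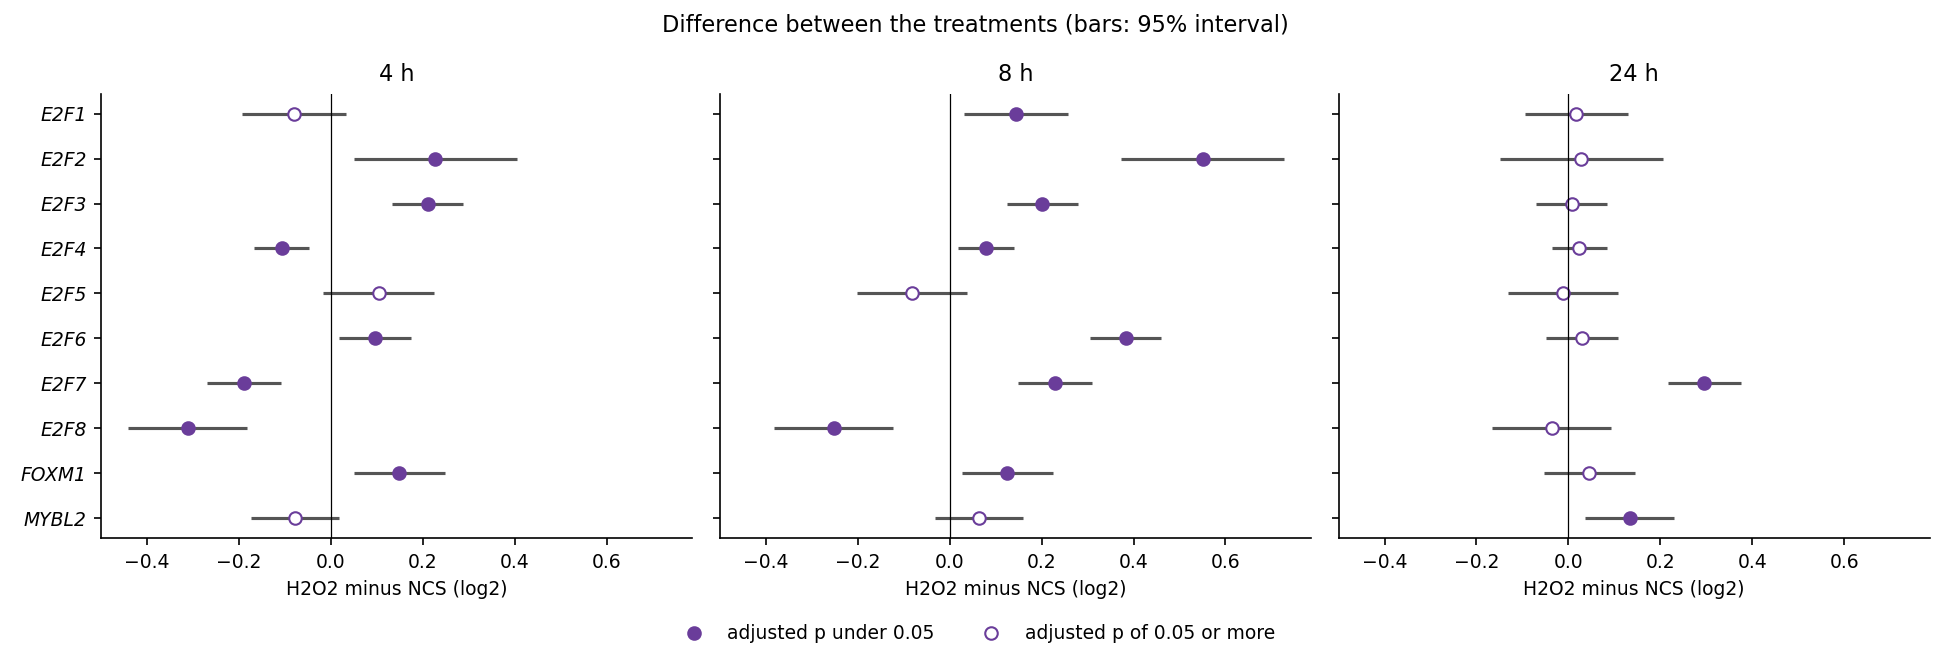
H2O2 minus NCS difference of each gene (log2, x axis) at 4, 8 and 24 h, with bars for the 95% interval and open points where the adjusted p was 0.05 or more. E2F7 moves from -0.19 at 4 h to 0.30 at 24 h, E2F2 reaches 0.55 at 8 h, and the intervals of 8 genes include 0 at 24 h.

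Transcripts of the proteins that E2F factors bind fell as well. Of 5 dimer partner and pocket protein genes with values (TFDP3 was listed at 0), none rose in any comparison with untreated cells, where 7.47% to 26.2% of all genes rose. However, 1 rose at 24 h of H2O2 after quantile normalization or without untreated replicate 2. All 5 fell at 8 h of either treatment, where 18.6% and 13.3% of all genes fell. At 24 h, 3 fell after H2O2 and 5 after NCS (3 after quantile normalization), against 19.9% and 18.4% of all genes, with medians of -0.45 and -0.39 at 24 h. RBL1, which encodes p107 and is itself an E2F target, fell by 1.26 and 1.34 at 24 h of H2O2 and NCS (adjusted p = 2.08e-13 and 8.83e-14). TFDP1, the main DP partner, fell by 0.73 and 0.65, and RB1 by 0.45 and 0.39. RBL2, which encodes p130, differed at 24 h by -0.10 after H2O2 (adjusted p = 0.0674) and fell by 0.11 after NCS, having fallen by 0.53 and 0.33 at 8 h. Of the 5 genes of the MuvB core, on which B-MYB and FOXM1 assemble, 4 fell and 1 rose at 24 h of both treatments. Of all genes, 19.9% fell and 20.2% rose after H2O2, and 18.4% fell and 19.6% rose after NCS. The falls in the MuvB core were led by LIN9 at -1.10 and -1.17 (adjusted p = 5.56e-13 and 2.31e-13) and LIN54 at -0.66 and -0.80. LIN52, the subunit whose phosphorylation switches MuvB between partners, fell by 0.34 and 0.52. LIN37, another subunit, rose by 0.13 after both (adjusted p = 0.0353 and 0.0338). That rise was lost after H2O2 without untreated replicate 1 or 2 or any 24 h replicate and after median alignment, and after NCS without untreated replicate 1 or 2 or NCS replicate 3.

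Upstream of RB, 13 genes for cyclins, kinases and kinase inhibitors moved in both directions, with 4 risen and 7 fallen at 24 h of H2O2, against 20.2% and 19.9% of all genes, and 5 risen and 6 fallen at 24 h of NCS, against 19.6% and 18.4%. CDKN1A, which encodes the p53-induced inhibitor p21, rose from 14.13, 14.14 and 14.08 to 15.31, 15.30 and 15.36 at 4 h of H2O2 and to 15.70, 15.69 and 15.71 at 4 h of NCS, and was still higher by 1.57 and 1.48 at 24 h (adjusted p = 3.25e-12 and 8.11e-12). At 4 h, 3 genes of this list had risen and 6 had fallen after H2O2, against 26.2% and 19.7% of all genes, and 1 and 4 after NCS, against 7.47% and 9.72%. The other inhibitor genes moved both ways. CDKN2B rose by 0.38 at 4 h of H2O2 (adjusted p = 2.40e-06), while at 4 h of H2O2 and NCS CDKN1B fell by 0.68 and 0.78 (adjusted p = 4.76e-08 and 4.50e-08) and CDKN2C by 0.35 and 0.85 (adjusted p = 8.55e-03 and 6.75e-06). CDK2, the kinase partner of cyclin E, fell by 1.17 and 1.13 at 24 h, and CDKN2C, which is also an E2F target, by 1.80 and 1.99. CCND2 rose by 1.06 and 0.85 at 24 h and CCND1 by 0.28 and 0.30. Of 9 partners of E2F6 in the variant Polycomb complex, 3 rose and 1 fell at 8 h of H2O2, against 18.8% and 18.6% of all genes, and 1 rose and 4 fell at 8 h of NCS, against 10.5% and 13.3%. The NCS counts ranged from 0 to 3 risen and from 2 to 5 fallen over the alternatives, with no gene risen without untreated replicate 1 or NCS replicate 2. Between the treatments at 4 h, 3 of the 9 partners were higher and 2 lower after H2O2, against 26.3% and 18.0% of all genes. At 8 h, 6 were higher and 1 lower, against 18.7% and 15.4%. These 8 h counts ranged from 3 to 6 and from 0 to 1 over the alternatives and omissions, with 3 higher without H2O2 replicate 1 or NCS replicate 3. The partners differed among themselves. The H2O2 to NCS difference of RYBP was 0.59 at 4 h and 0.37 at 8 h (adjusted p = 2.16e-10 and 2.31e-07). For MGA it was -0.69 at 4 h but 0.12 at 8 h (adjusted p = 7.25e-11 and 0.0162), and for L3MBTL2 -0.39 and -0.09 (adjusted p = 6.65e-09 and 0.0307).

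Known targets of the factors fell after both treatments, the G2/M targets from 4 h on and the G1/S targets mostly by 8 h. Of 37 G1/S genes known as E2F targets, 2 rose and 16 fell at 4 h of H2O2, against 26.2% and 19.7% of all genes, and 2 rose and 7 fell at 4 h of NCS, against 7.47% and 9.72%, when E2F1 had not fallen. The number risen was 1 at 4 h of H2O2 without any one library but untreated replicate 2, and 4 at 4 h of NCS without untreated replicate 2. At 8 h, 32 had fallen after H2O2, the same number without replicate 2, and 34 after NCS, against 18.6% and 13.3% of all genes. At 24 h all 37 had fallen after both treatments, 30 and 29 of them past a log2 difference of 1, where 19.9% and 18.4% of all genes fell and 1.29% and 1.37% fell past 1. The medians were -1.40 and -1.32 beside -1.44 and -1.45 for E2F1. CCNE1, which encodes cyclin E1, fell by 0.56 and 0.59 at 24 h of H2O2 and NCS (adjusted p = 3.08e-07 and 1.58e-07). CCNE2, which encodes cyclin E2, moved further, from 8.37, 8.33 and 8.25 to 6.45, 6.42 and 6.43 after H2O2 and to 6.43, 6.48 and 6.39 after NCS. CDC6, which loads the replicative helicase, rose by 0.16 at 4 h of NCS (adjusted p = 2.71e-03), fell by 0.24 at 4 h of H2O2 and had fallen by 1.75 and 1.66 at 24 h. PCNA, a replication clamp gene that is also a known p53 target, rose by 0.34 to 0.55 at 4 and by 0.31 to 0.41 at 8 h and fell by 0.38 and 0.40 at 24 h. Between the treatments, 4 of the 37 genes were higher and 15 lower after H2O2 at 4 h, with a median of -0.06, where 26.3% and 18.0% of all genes were, and 18 were higher and 3 lower at 8 h, with a median of 0.10, where 18.7% and 15.4% of all genes were. At 24 h 7 were higher and 2 lower, with a median of 0.03, against 11.0% and 10.9% of all genes. These counts ranged from 4 to 7 and from 1 to 6 over the alternatives and omissions, with 4 higher and 5 lower without NCS replicate 1 and 1 lower without NCS replicate 3 or H2O2 replicate 3. An E2F site was present in 46.9% of the 32 of these genes with a matched promoter, beside 2.79% of all promoters, and TTTGAA in 6.25%, beside 13.3%. The E2F core was present in 56.2% and a CCAAT box in 75.0% of them, beside 13.5% and 32.0% of all promoters.

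Of 38 G2/M genes known as FOXM1 and B-MYB-MuvB targets, 34 had fallen at 4 h of H2O2 and all 38 at 4 h of NCS, where 19.7% and 9.72% of all genes fell. At that time MYBL2 had not fallen after either treatment, and FOXM1 had fallen after NCS. The median went from -0.39 at 4 h through -1.01 at 8 h to -1.86 at 24 h of H2O2, and from -0.85 through -1.12 to -2.07 at the same times of NCS, beside -1.43 and -1.47 for FOXM1 at 24 h. Without replicate 2 the 8 h median of H2O2 was -1.16. All 38 had fallen at 24 h of both treatments, against 19.9% and 18.4% of all genes. PLK1, a mitotic kinase, fell from 11.70, 11.79 and 11.82 to 9.59, 9.38 and 9.42 after 24 h of H2O2 and to 8.89, 8.90 and 8.89 after 24 h of NCS. The H2O2 replicates at 8 h read 10.20, 10.84 and 10.33, with the deviating replicate 2 nearest to untreated cells. MKI67, a proliferation marker, fell by 2.51 and 2.73 and CCNB1, which encodes cyclin B1, by 1.75 and 1.92 at 24 h. At 4 h 36 of the 38 genes were higher after H2O2 than after NCS and none was lower, with a median of 0.47, beside 0.15 for FOXM1, where 26.3% and 18.0% of all genes were higher and lower. At 8 h 17 were higher and none lower, with a median of 0.20, against 18.7% and 15.4% of all genes, but without H2O2 replicate 2 13 were higher and 6 lower, with a median of 0.05, and 7 were higher with these groups fitted alone. At 24 h 19 were higher and none lower, with a median of 0.23 (14 to 24 higher over the alternatives and omissions of a library), against 11.0% and 10.9% of all genes. TTTGAA was present in 63.6% of the 33 of these genes with a matched promoter and a CCAAT box in 84.8%, beside 13.3% and 32.0% of all promoters. An E2F site was present in 9.09% of them and the E2F core in 27.3%.

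**Figure D4:**
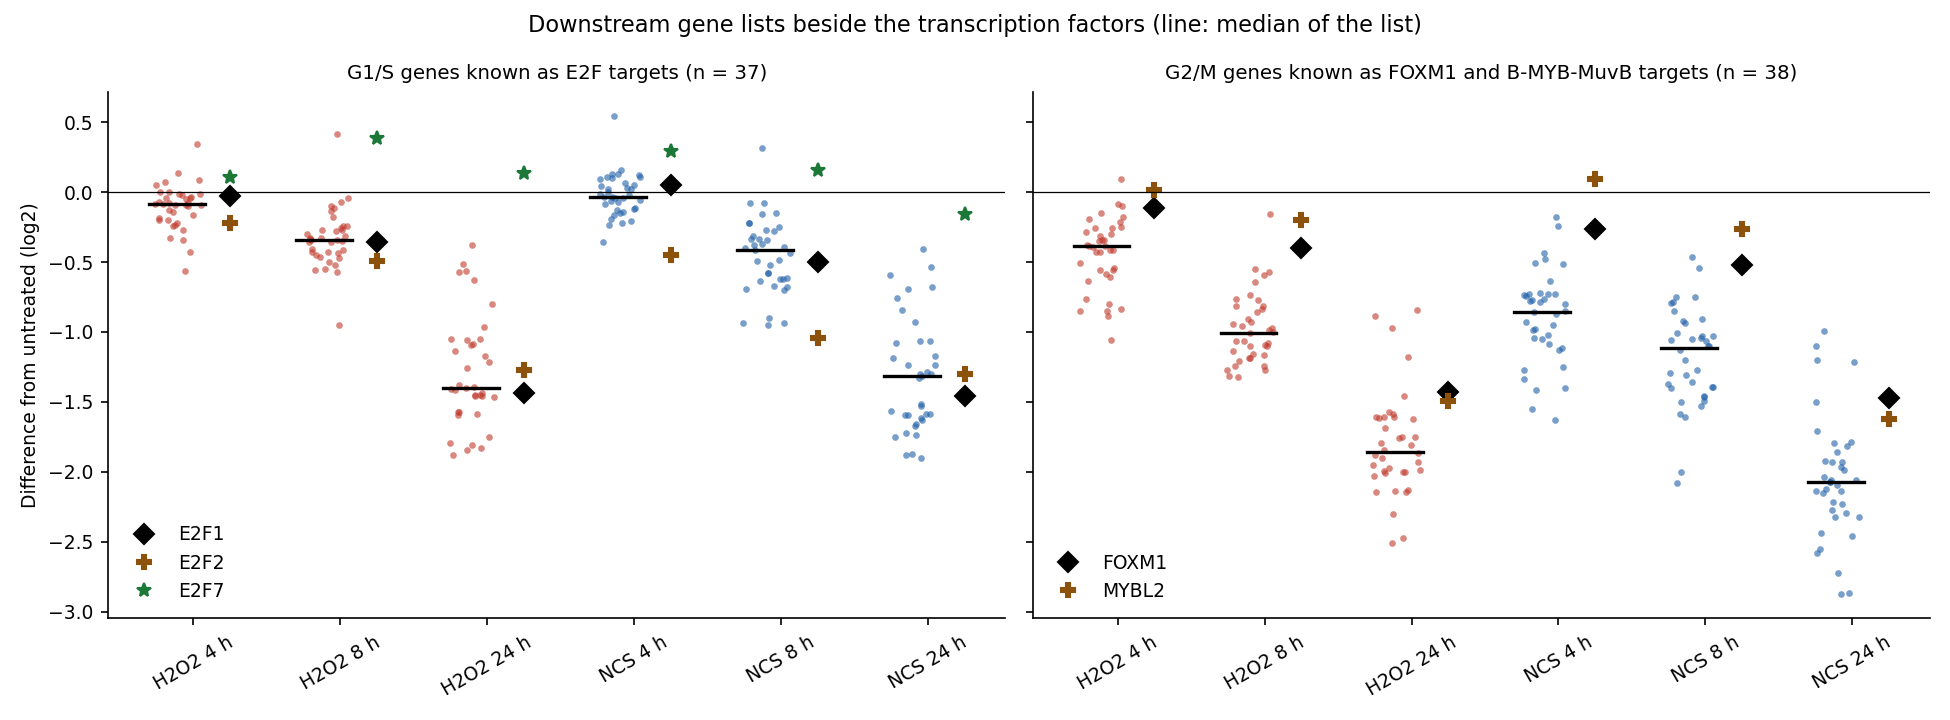
Difference from untreated cells (log2, y axis) of each of 37 G1/S genes (left) and 38 G2/M genes (right) in the 6 treated groups (x axis), with H2O2 in red, NCS in blue and a line at the median of the list. E2F1, E2F2 and E2F7 are drawn beside the G1/S genes and FOXM1 and MYBL2 beside the G2/M genes, whose median at 24 h (-1.86 and -2.07) lies below both factors.

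Across the 21 libraries, which share the same untreated group and the same 24 h fall, E2F1 was most alike FOXM1 (Pearson r = 0.986) and MYBL2 (0.985), and FOXM1 and MYBL2 correlated at 0.979. E2F8 followed MYBL2 (0.936) more closely than its relative E2F7 (0.327), and the lowest value was between E2F5 and E2F7 (-0.689). Among 11681 genes with a mean of at least 5, those most alike E2F1 included MCM10 and ATAD2 (0.994 each), those most alike MYBL2 were TCF19, MCM7 and CDT1 (0.995, 0.995 and 0.994), and those most alike FOXM1 included SHCBP1 and CDK1 (0.996 and 0.991). E2F8 was most alike KIF24, NEIL3 and POLQ (0.987 to 0.982), and E2F2 most alike HNRNPR, KIF20A and MCMBP (0.972 to 0.967). E2F7 stood with other genes, CHST3, NOTCH1 and RBM38 (0.947, 0.946 and 0.920). The most alike genes were TRAF2 for E2F4 (0.955), NIPA2 for E2F6 (0.945) and ZNF22 for E2F3 (0.941), and the lowest of these leading values was that of LYRM5 for E2F5 (0.785).

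Levels were also put per kilobase of annotated exon (GENCODE exons on GRCh38), a rough correction for gene length. The length is that of the exons of all annotated transcripts together, not of the mRNA present, so close levels cannot be ordered. On this scale untreated cells held most FOXM1 (9.74), MYBL2 (9.42), E2F4 (9.11) and E2F7 (9.06), then E2F1 (8.48), E2F3 (7.43), E2F6 (6.32), E2F8 (4.82), E2F2 (3.81) and E2F5 (1.08). At 24 h the order had changed at the top. E2F7 stood first at 9.20 after H2O2 and 8.91 after NCS, followed by E2F4 at 8.89 and 8.86, FOXM1 at 8.31 and 8.27, and MYBL2 at 7.93 and 7.80. The means of E2F7 and E2F4 lay close together after NCS, and no order on this scale was tested. FOXM1 is annotated at chr12:2857681-2877155, MYBL2 at chr20:43667019-43716496, E2F1 at chr20:33675683-33686404 and E2F7 at chr12:77021247-77065580 of GRCh38, whereas the reads were aligned to hg19.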

How the data were processed

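The authors aligned reads of TruSeq Stranded mRNA libraries with HISAT2 at default settings, counted them with htseq-count and passed the counts to DESeq2, whose rLog values, on a log2 scale, they deposited. The submitters' processing notes name hg19, and the gene annotation is not given in the sources used here. Of 23368 genes, 3674 at 0 in every library were left out, which left 19694, and 28 symbols had been turned into dates. No authors' fold changes were used. The 21 libraries were assigned to 7 groups by their labels. One limma fit (version 3.58.1, R 4.3.3) of 7 group means, with a mean-variance trend, gave 14 comparisons, and p-values were adjusted by the Benjamini-Hochberg method over all 19694 genes. "Rose" and "fell" mean an adjusted p under 0.05. With 3 libraries against 3, an exact permutation test cannot go below a two-sided p of 0.1, so none was run. On simulated data of 19694 genes with independent normal noise, for 24 h of H2O2, the fit recovered 99 of 100 genes changed by 0.58. It recovered 100 of 100 changed by 1, with 24 false calls among the genes left unchanged. Changes were planted only in genes with a mean of at least 5. Changes smaller than 0.58 were not simulated. Whether replicates came from separate cultures is not stated beyond their label as biological replicates, so p-values measure the spread between these libraries.

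The 10 genes and the gene lists were chosen with earlier results of these data known. Named in every case were the 10 genes and TFDP1, RB1, RBL1, RBL2, LIN9, LIN52, CDKN1A, CCND1, CCNE1, CCNE2, CDC6, CCNB1, PLK1 and MKI67, and in addition the 2 genes per list with the largest changes each way and the 3 genes most alike each of the 10. Some genes that this rule names are not reported here. Alternatives were a minimum log2 difference of 0.58 or 1, median alignment, quantile normalization, a minimum mean of 5, a replicate block, a fit of the groups compared only and omission of each library.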

Additional observations from a re-analysis of the deposited data

Results flagged for a closer look

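The H2O2 to NCS difference changed between 4 h and 24 h for 5 of the 10 genes, by a test of the change itself in one limma fit, in the positive direction for 4 and the negative for 1, where 16.6% and 22.7% of all genes passed. For E2F7 the difference moved from -0.19 to 0.30, a change of 0.49 (SE 0.054, adjusted p = 1.32e-06) that held under every alternative and with each library left out. For E2F3 it moved from 0.21 to 0.0071, a change of -0.20 (SE 0.052, adjusted p = 4.15e-03), and for MYBL2 from -0.08 to 0.13, a change of 0.21 (SE 0.064, adjusted p = 0.0141). For E2F8 it moved from -0.31 to -0.04, a change of 0.28 (SE 0.087, adjusted p = 0.0175), which was lost without NCS 4 h replicate 1 (adjusted p = 0.0502). For E2F4 it moved from -0.11 to 0.02, a change of 0.13 (SE 0.041, adjusted p = 0.0157), which was lost after median alignment (adjusted p = 0.0581). The other 5 genes did not pass this test.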

How the results depend on the processing

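Of 95 calls of the 10 genes over the 14 comparisons, 74 held under every alternative to the scaling, filter and fit and with each library left out, and 21 were lost under at least one. Among the alternatives to the scaling, filter and fit, a fit of the groups compared only lost the most calls, 12, followed by quantile normalization with 10. Other scalings shifted the median of all genes by at most 0.03. A minimum log2 difference reduced the counts most, since most early changes were small. In the comparisons with untreated cells at 4, 8 and 24 h, a minimum of 0.58 left 0, 1 and 5 genes after H2O2 and 0, 1 and 5 after NCS, and a minimum of 1 left 0, 0 and 5 after H2O2 and 0, 1 and 5 after NCS. Between the treatments at 4, 8 and 24 h, and for the change of that difference, either minimum left 0 genes. From 4 to 8 h, 0 genes were left after H2O2 at either minimum, and 1 at 0.58 and 0 at 1 after NCS. From 8 to 24 h, 5 at 0.58 and 3 at 1 were left after H2O2, and 4 and 2 after NCS. Between the treatments at 8 h, 5 instead of 8 genes passed after quantile normalization and with the groups compared fitted alone, and at 24 h 1 instead of 2 passed under these settings and after median alignment. The cause was not tested.

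With single libraries left out, the number of genes that passed ranged from 2 to 4 at 4 h of H2O2, where 2 passed without untreated replicate 2 or H2O2 replicate 2, from 5 to 7 between the treatments at 8 h, where 5 passed without H2O2 replicate 2 or 3 or NCS replicate 1, and from 1 to 2 between them at 24 h, where 1 passed without any one library but NCS replicate 3. From 4 to 8 h of NCS it ranged from 4 to 6 and was 4 without the 8 h replicate 1. It ranged from 5 to 7 from 4 to 8 h of H2O2 and from 8 to 24 h of NCS. The differences that turned direction did not pass in any setting named here. E2F1 between the treatments at 24 h was -0.0083 after median alignment and -0.0090 after quantile normalization, and from -0.027 to 0.066 with single libraries left out. E2F1 at 4 h of H2O2 was 0.024 after quantile normalization. With single libraries left out, MYBL2 at 4 h of H2O2 ranged from -0.030 to 0.041, and between the treatments at 24 h E2F2 ranged from -0.032 to 0.063 and FOXM1 from -0.0091 to 0.11.

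The labels do not say what a shared replicate number stands for. Deviations from the group means correlated at a mean of 0.0274 for libraries of the same number (-0.149 to 0.213 over 63 pairs) and -0.0137 for different numbers, so the numbers were not taken to pair the samples. A replicate block moved no count of the 10 genes by over 1.5 times, and the calls of E2F5 at 8 h of H2O2 (adjusted p = 0.0618), E2F8 at 4 h of NCS (adjusted p = 0.0598) and FOXM1 between the treatments at 8 h (adjusted p = 0.0506) did not pass with it in limma.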
